A study of Mus musculus with 43 samples.

Results

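The H/ACA box small nucleolar RNAs (snoRNAs) and small Cajal body RNAs (scaRNAs) were taken as every entry of the 3 small RNA count tables whose name starts with Snora or Scarna. There were 50 such entries, of 48 genes, among 5364 distinct entries in all. Tissue libraries listed 50 of them among 4890 entries, fluid libraries 31 among 3178 and sperm libraries 48 among 4323. Snora16a and Snora43 each came as 2 transcript entries with identical counts, so that each pair holds 1 measurement.

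The mice were of the FVB strain, 8 to 12 weeks old, and either wild type (WT) or knockout (KO) for the Rnase9-12 cluster of RNase A family genes, which was removed by CRISPR editing in the whole animal. Small RNAs were sequenced from 3 segments of the epididymis (caput, corpus and cauda, the order in which sperm pass through them), from the fluid of each segment and from cauda sperm. There were 3 libraries in each tissue group except KO corpus, with 2, 3 in each fluid group, and 4 WT and 4 KO sperm libraries. RNA of 3 mice was pooled in each fluid and sperm library, whereas for tissue the sources used here state no pooling. Tissue library names repeat the genotype and number over the segments, but nothing says that same-numbered libraries share an animal, litter or day. RNA was treated with polynucleotide kinase (PNK) in all groups, which takes phosphates off fragment ends. Tissue libraries were then made by ARM-seq, which removes base methylations with a demethylase, and fluid and sperm libraries by OTTR-seq, in which a reverse transcriptase joins the adapters, so levels in tissue and in the other samples were compared without a test. WT caput library 3 of the tissue and all 6 caput fluid libraries carry the section label cauda but are caput in their titles, and were grouped by title. The deleted genes were not analysed here, as the tables count small RNAs, and the genotype rests on the labels.

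Tissue libraries held 30142156 to 249732714 counts each, fluid libraries 1948718 to 12320922 and sperm libraries 1134840 to 62128314, where WT libraries 2, 3 and 4 and KO library 4 held at most 3618739. The 5 tissue libraries numbered 3 stood apart from the other 12 in several measures given below. Levels are given as CPM (counts-per-million), taken over a library's total after TMM scaling, which evens out composition between libraries. MicroRNAs that mark epididymal epithelium were found in all tissue groups, and germ cell microRNAs had a summed level of 17.9 to 47.2 CPM in WT sperm and 30.5 to 43.2 CPM in KO sperm against at most 0.462 CPM in tissue. Epithelial microRNAs were also found in sperm, at 6.24 to 23.9 CPM in WT and 16.3 to 23.3 CPM in KO, against 7.57 to 25.9 CPM in tissue. Smooth muscle microRNAs reached 18.4 CPM in WT sperm and 18.1 CPM in KO sperm. Members made up 0.0241 to 0.0492% of all counts in tissue, 0.0195 to 0.0700% in sperm and 0.000552 to 0.00254% in fluid. This came to 9758 to 73284 counts a library in tissue, 327 to 29709 in sperm and only 31 to 244 in fluid, so a fluid level rests on few counts.

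H/ACA RNAs fold into hairpins joined by a hinge with the H box (ANANNA) and end in a tail with the trinucleotide ACA. In a particle with the pseudouridine synthase dyskerin they base-pair with a target RNA and direct the change of a chosen uridine to pseudouridine. Most Snora RNAs guide this in ribosomal RNA (rRNA) in the nucleolus, whereas scaRNAs act on the spliceosomal RNAs in the Cajal body, and most of both kinds are released from introns of spliced host transcripts. Snora73a and Snora73b are the U17 RNAs, which are required for cleavage of the rRNA precursor rather than for pseudouridylation.

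The 48 genes held 2 U17 genes, 37 other Snora genes, here called rRNA guides, 4 H/ACA scaRNAs (Scarna3a, Scarna3b, Scarna8 and Scarna13), 2 scaRNAs with both box types (Scarna6 and Scarna10) and 3 C/D box scaRNAs (Scarna2, Scarna9 and Scarna17). The last 3 guide ribose methylation, so the H/ACA name does not hold for them. The genes were 70 to 414 nt long, with a median of 133.5 nt, and 33.3 to 64.1% G and C. An ACA that ended 1 to 4 nt from the 3′ end was found in 41 of 48 genes, which were both U17 genes, 35 of 37 guides, all 4 H/ACA scaRNAs and none of the 5 C/D or mixed scaRNAs. The guides without it were Snora44 and Snora81. Both this ACA and an ANANNA in the middle of the RNA were found in 77.1% of the 48 genes. Of 95 transcript entries named Snord, the C/D box snoRNAs, 0 had both and 3.16% had such an ACA. In the GENCODE annotation 43 genes lay inside a host gene on the same strand, 11 of them inside a gene for a ribosomal protein.

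Sequences of the RNAs on which most comparisons turned are printed in the sense of the RNA, 5′ to 3′ in DNA letters from the GRCm38 (mm10) reference, with each ANANNA of the middle window and the ACA near the 3′ end in capitals. Snora73a lies at chr4:132352775-132352979 and Snora73b at chr4:132352322-132352526, both on the minus strand inside Rcc1 and Snhg3. Snora61, at chr4:132310240-132310369 on the plus strand, shares the host Snhg12 with Snora16a and Snora44. Snora20, at chr17:12922790-12922917 on the plus strand, lies in Tcp1, which encodes a chaperonin subunit.
Snora73a: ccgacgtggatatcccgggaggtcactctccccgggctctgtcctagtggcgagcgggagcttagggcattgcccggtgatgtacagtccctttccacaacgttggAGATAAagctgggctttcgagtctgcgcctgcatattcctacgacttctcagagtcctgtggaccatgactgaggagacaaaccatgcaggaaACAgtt
Snora73b: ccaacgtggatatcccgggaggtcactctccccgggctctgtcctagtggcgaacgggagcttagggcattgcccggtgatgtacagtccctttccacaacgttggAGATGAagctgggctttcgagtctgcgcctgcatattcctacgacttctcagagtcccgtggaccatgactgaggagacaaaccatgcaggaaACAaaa
Snora61: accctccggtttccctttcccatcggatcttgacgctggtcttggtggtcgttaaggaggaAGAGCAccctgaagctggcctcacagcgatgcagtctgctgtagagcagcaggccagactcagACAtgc
Snora20: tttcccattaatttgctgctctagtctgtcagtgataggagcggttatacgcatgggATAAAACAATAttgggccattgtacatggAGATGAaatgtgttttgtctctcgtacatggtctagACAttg
The U17 RNAs were identical at 198 of 205 aligned positions (96.6%), so that a short read can match both and their counts were not independent. Scarna3a and Scarna3b were identical at 120 of 140 (85.7%).

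Some members are also the source of a microRNA, and reads of the microRNA fall inside the snoRNA. A same-strand microRNA annotation overlapped 8 of the 48 genes. The sequences of 6 of them are shown, with the bases shared with the microRNA annotation in capitals, as examples of how much of a member the microRNA covers. Snora34 (chr15:98519716-98519853, minus strand, in Kansl2) shared 92 nt with Mir1291, and Snora36b (chr1:185242907-185243038, plus strand) 64 nt with Mir664. Snora19 (chr19:60774330-60774461, minus strand) shared 68 nt with a Mir3084 gene. The hairpins of Mir3084-1 and Mir3084-2 are identical, so counts of the 2 microRNA genes cannot be told apart. Scarna3a (chr1:159340283-159340422, plus strand) and Scarna3b (chr12:80391613-80391751, minus strand) shared 65 nt each with Mir1843b and Mir1843a. Snora81 (chr16:23110756-23110933, plus strand, in Eif4a2) shared 103 nt with the predicted microRNA gene Gm49346.
Snora34: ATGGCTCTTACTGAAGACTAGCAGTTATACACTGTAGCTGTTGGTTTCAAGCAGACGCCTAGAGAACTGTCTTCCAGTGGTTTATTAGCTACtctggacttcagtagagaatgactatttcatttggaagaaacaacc
Snora36b: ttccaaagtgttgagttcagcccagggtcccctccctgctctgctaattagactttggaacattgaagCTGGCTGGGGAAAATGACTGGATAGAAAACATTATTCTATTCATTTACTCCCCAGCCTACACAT
Snora19: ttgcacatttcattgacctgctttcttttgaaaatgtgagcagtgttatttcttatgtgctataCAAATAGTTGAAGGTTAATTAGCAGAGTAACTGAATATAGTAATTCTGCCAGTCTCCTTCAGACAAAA
Scarna3a: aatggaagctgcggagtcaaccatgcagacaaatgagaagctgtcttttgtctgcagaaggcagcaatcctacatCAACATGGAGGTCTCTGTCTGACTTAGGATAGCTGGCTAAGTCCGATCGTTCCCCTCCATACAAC
Scarna3b: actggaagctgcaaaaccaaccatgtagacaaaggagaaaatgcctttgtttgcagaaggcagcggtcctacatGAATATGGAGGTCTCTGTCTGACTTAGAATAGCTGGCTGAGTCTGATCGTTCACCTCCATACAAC
Snora81: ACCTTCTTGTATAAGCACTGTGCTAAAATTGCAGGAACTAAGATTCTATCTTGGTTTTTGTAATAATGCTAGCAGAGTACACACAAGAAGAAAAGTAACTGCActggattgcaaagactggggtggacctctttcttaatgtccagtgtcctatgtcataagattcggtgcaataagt

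The mature microRNAs of these hairpins are given from RefSeq (GRCm38.p6) with the seed, bases 2 to 8, in capitals. A mature entry was matched for 6 of the 8 genes, and those inside the RNAs shown above are printed. None of these 9 shares its seed with another, although the 5p seeds of the Mir1843 pair are the same letters shifted by 1 base.
mmu-miR-1291: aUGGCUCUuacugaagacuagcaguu
mmu-miR-664-5p: cUGGCUGGggaaaaugacugg
mmu-miR-664-3p: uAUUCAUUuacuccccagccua
mmu-miR-3084-5p: gUUGAAGGuuaauuagcagagu
mmu-miR-3084-3p: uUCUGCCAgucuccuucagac
mmu-miR-1843a-5p: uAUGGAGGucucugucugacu
mmu-miR-1843a-3p: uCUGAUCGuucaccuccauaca
mmu-miR-1843b-5p: aUGGAGGUcucugucugacuu
mmu-miR-1843b-3p: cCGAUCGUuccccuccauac

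The microRNA entry of each pair was counted in the same tables, and its count was set against that of the snoRNA. For Snora34 the microRNA count was a median of 95.7% (range 88.4 to 96.9) of the member's count in the 12 tissue libraries numbered 1 and 2, but 57.4% (45.7 to 57.7) in the 5 numbered 3, and 23.3% in sperm. Snora81 had 81.8% (65.6 to 90.5) in the first set, 35.8% (29.7 to 38.4) in the second and 53.9% (36.8 to 63.3) in sperm. For both RNAs the microRNA share was higher in every library numbered 1 or 2 than in any numbered 3. Scarna3a moved the opposite way, with 51.3% (45.3 to 65.3) in libraries 1 and 2, 73.2% (68.9 to 76.05) in those numbered 3 and 18.3% in sperm. Scarna3b did likewise, at 46.0% (23.8 to 65.2), 81.6% (71.8 to 83.9) and 12.1% (0 to 16.3). Some sperm libraries held few counts of these members, down to 3 of Snora34, 2 of Scarna3a and 0 of Scarna3b. Snora74a, which overlaps the predicted microRNA gene Gm49347, had 55.7% (43.4 to 65.4), 18.7% (17.4 to 23.04) and 76.8%, again without overlap between the tissue sets. Snora19 was counted almost only from the microRNA bases in tissue, at 94.0% (92.3 to 100) and 88.7% (85.1 to 96.6), and at 78.6% in sperm. In fluid the microRNA counts summed over libraries were 54.1% of the count of Scarna3a and 47.7% of that of Snora81. A read in the shared bases can be counted on both entries, and read lengths and ends were not examined. These shares therefore do not tell the microRNA from other fragments of the snoRNA, and a value of these members can hold both.

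**Figure D1:**
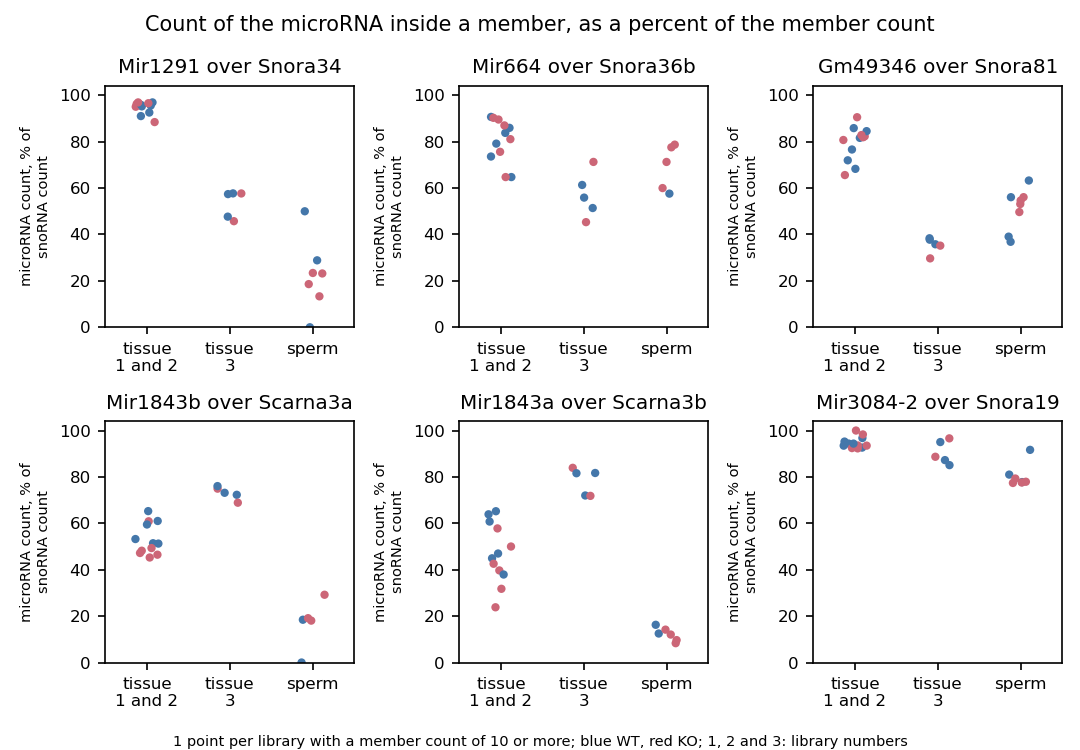
MicroRNA count as a percentage of the count of the snoRNA or scaRNA that contains it (vertical axis), for 6 pairs, in libraries with at least 10 counts of the member, with tissue libraries numbered 1 and 2, tissue libraries numbered 3 and sperm libraries in separate columns and WT in blue, KO in red. For Snora34 the tissue libraries numbered 3 lie at 45.7 to 57.7%, all under the other tissue libraries, and for Scarna3a at 68.9 to 76.05%, all above them.

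All 50 entries were detected in every one of the 17 tissue libraries. Levels of different RNAs were compared as CPM per kilobase of RNA, averaged over the libraries of a table. Snora81, a guide for 28S rRNA, was the highest on average over each table, with 306 CPM per kilobase in tissue, 320 in sperm and 8.17 in fluid, where the median member had 30.7, 35.3 and 2.44. By group it was the highest in 4 of 6 tissue groups, both sperm groups and 2 of 6 fluid groups: Snora28 was above it in KO caput (281 against 259) and KO cauda tissue (520 against 394), and in WT corpus and WT cauda fluid it ranked 12th and 7th. In tissue it was followed by Snora28 (293), Snora26 (187), Snora57 (123), Snora61 (101) and Snora68 (93.2), which with it made up 41.2% of member counts. In sperm it was followed by Snora28 (234), Snora7a (206), Snora24 (196), Snora20 (152) and Snora75 (137), with 43.7% of member counts. The libraries of each table overlapped widely for neighbours in these orders: Snora81 had 121 to 533 and Snora28 87.8 to 823 CPM per kilobase in single tissue libraries. The U17 RNAs ranked 10th and 18th of 48 in tissue and 8th and 10th of 47 in sperm. The scaRNAs ran from 49.0 CPM per kilobase for Scarna17, above the median member, down to 0.940 for Scarna13, the lowest member, in tissue. In fluid Scarna3a (7.96) and Scarna10 (6.08) were among the 4 highest.

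The order of members was similar along the epididymis and in both genotypes, with a Pearson correlation of log2 levels of 0.96 between WT caput and WT cauda tissue and of 0.98 between WT and KO cauda tissue (48 RNAs, measured in the same libraries and scaled by the same lengths). It was 0.69 between WT cauda tissue and WT sperm (47 RNAs) and 0.13 between WT cauda fluid and WT sperm (28 RNAs, many with under 10 counts). Snora2b, which shares the host Kansl2 with Snora34, had 2.03 CPM per kilobase in WT cauda tissue and 26.6 in WT sperm, a log2 difference of 3.71. Snora78 had 1.18 and 12.98 (3.46), Snora15 3.89 and 32.4 (3.06), and Snora7a 32.6 and 207 (2.67). The value of Snora7a rests on WT sperm library 4, without which it was 67.7 CPM per kilobase (1.06), whereas those of Snora2b, Snora78 and Snora15 were then 22.2, 14.5 and 25.8 (3.45, 3.62 and 2.73). Lower in sperm were Snora44, with 72.8 and 14.8 (-2.29), and Snora26, with 137 and 29.4 (-2.22). RNAs of 1 host transcript could lie apart: of the Snhg12 set, Snora61 had 74.2 and 100 (0.43) whereas Snora44 was lower in sperm, and Snora34 had 62.6 and 28.2 (-1.15) beside its host mate Snora2b at 3.71. No test was made, since library protocols differ between tissue and sperm.

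**Figure D2:**
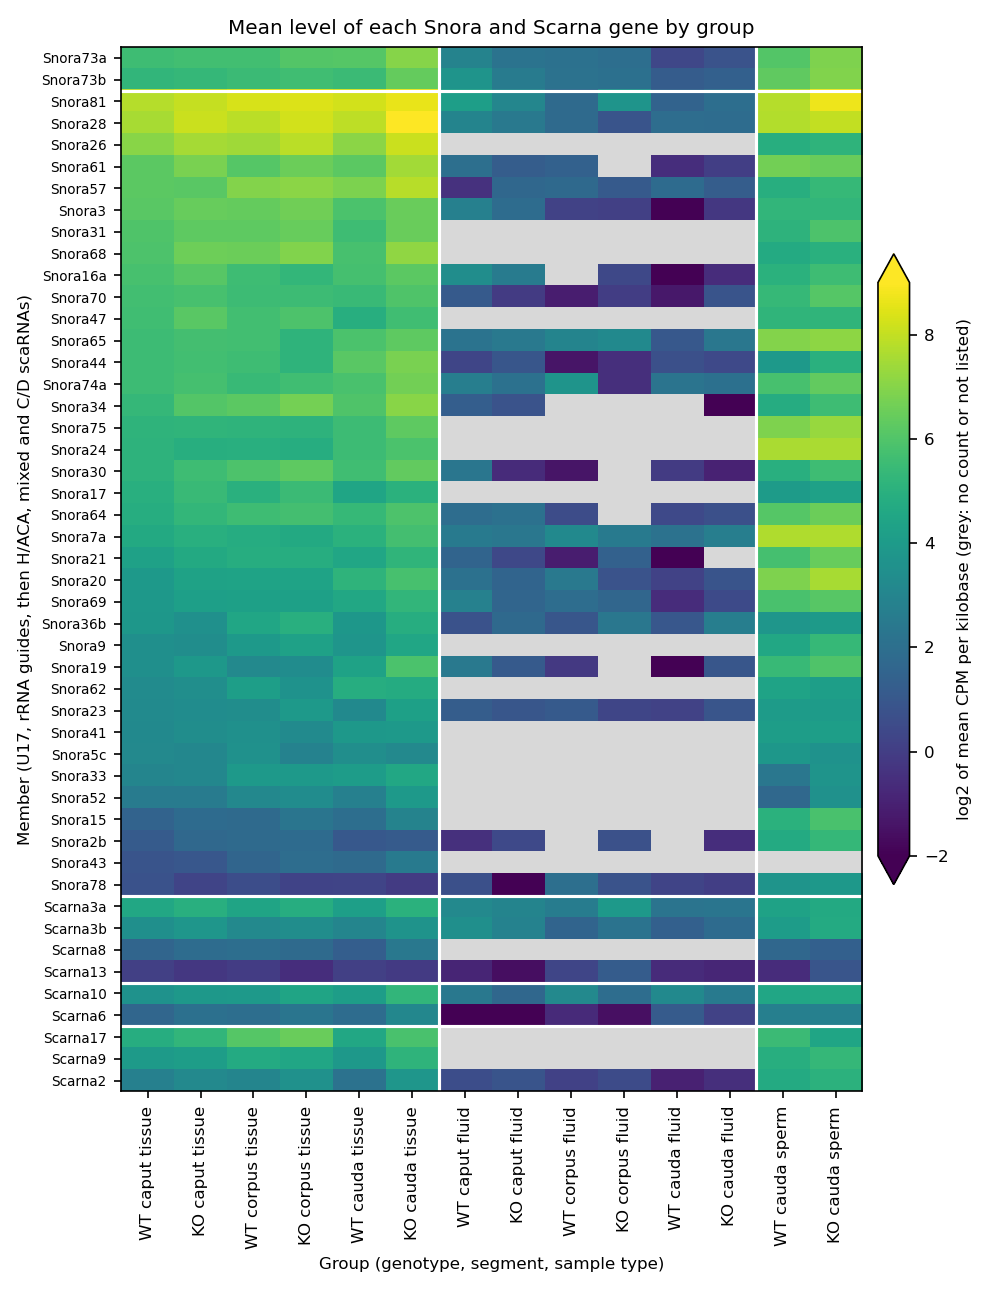
Mean level (log2 of CPM per kilobase, colour) of the 48 genes (rows, grouped by role) in the 14 groups of tissue, fluid and sperm libraries (columns), with grey for no count or no entry. The rows of Snora81 and Snora28 are the brightest in tissue and sperm, and the fluid columns are darker throughout, with 31 of the 50 entries listed.

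Whether members change along the WT epididymis was asked first in tissue, where all 50 entries passed the low-count filter. Relative to caput, WT cauda tissue had 1 member called higher (a call took an adjusted p below 0.05 with a change of more than 1 on the log2 scale) and none lower, against 23% of all entries tested being called and 15.7% called higher. Snora20, a guide for 18S rRNA, had 1.90, 1.94 and 1.92 CPM in the 3 caput libraries and 5.08, 5.96 and 2.55 CPM in cauda. All cauda libraries lay above all caput libraries, with cauda library 3 nearest to them. The log2 fold change was 1.23 (SE 0.40, n = 3 and 3, edgeR quasi-likelihood adjusted p = 0.0319), and 1.13 under a block for the replicate number (adjusted p = 0.00961). Leaving out 1 library took the adjusted p to between 0.00535 and 0.0933, above 0.05 for all libraries but cauda library 3, and scaled by the library total the log2 fold change was 0.62 (adjusted p = 0.280). Snora62, which had 1.34, 1.69 and 1.45 CPM in caput and 6.57, 4.24 and 2.08 CPM in cauda, missed the threshold (log2 fold change 1.52, SE 0.55, adjusted p = 0.0531) and passed it with the block (1.29, adjusted p = 0.0119), which raised the calls to 2 of 50 against 29.3% of all entries. The median log2 fold change of the members was 0.25 against -0.05 over all entries, and both were lower, with -0.28 for the members, when scaled by the library total. Smooth muscle microRNAs moved with the segment: their summed level was 20.6 to 40.3 CPM in WT caput and 108 to 215 CPM in WT cauda tissue, and 23.5 to 39.8 CPM and 107 to 140 CPM in KO. Their part in these differences was not tested, and in bulk tissue fewer cells of a type and less RNA per cell cannot be told apart.

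In WT corpus against caput tissue 0 of 50 members were called, against 11.8% of all entries, with 1 higher at an unadjusted p under 0.05 in edgeR, against 16.9%, and 0 called by DESeq2. That one was Scarna17, a C/D box scaRNA that guides methylation of a spliceosomal RNA, with 1.79, 1.04 and 4.09 CPM in caput and 9.53, 2.28 and 4.57 CPM in corpus (1.24, adjusted p = 0.192). Its libraries overlapped, and with the libraries numbered 3 left out its log2 fold change was 2.16 (adjusted p = 0.0262), 1 of 4 members then called against 23.2% of all entries. In WT cauda against corpus tissue 0 of 50 were called, against 3.41%, with 1 higher and 2 lower at an unadjusted p under 0.05, against 10.5% and 6.71%, and 0 called by DESeq2. Snora19 had 1.13, 1.65 and 0.801 CPM in corpus and 2.36, 3.55 and 2.18 CPM in cauda, which do not overlap (1.18, SE 0.41, adjusted p = 0.166), and was the 1 member called with the replicate block (1.20, adjusted p = 0.0227, against 8.92%).

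In KO mice 5 of 50 members were called between cauda and caput tissue, all higher in cauda, against 25.7% of all entries called and 17.1% called higher. Of the U17 pair, Snora73a had 12.9, 11.6 and 6.72 CPM in KO caput and 34.7, 30.7 and 12.5 CPM in KO cauda. The lowest cauda value lay within the caput range, and the log2 fold change was 1.32 (SE 0.41, adjusted p = 0.0235). Among the guides, Snora19 had 1.86, 2.25 and 1.605 CPM in caput and 11.7, 8.22 and 3.35 CPM in cauda, without overlap (2.02, SE 0.42, adjusted p = 0.00158). Snora20 had 2.24, 3.19 and 2.33 CPM against 8.57, 9.32 and 3.54 CPM (1.46, SE 0.40, adjusted p = 0.0116). Snora44 had 6.66, 4.92 and 8.31 CPM against 16.4, 14.9 and 11.8 CPM (1.11, SE 0.36, adjusted p = 0.0299). These groups did not overlap either. Scarna10, a mixed scaRNA that guides changes in the spliceosomal RNA of the U5 particle, had 6.05, 5.09 and 2.97 CPM against 17.6, 12.98 and 5.79 CPM, with cauda library 3 inside the caput range (1.36, SE 0.45, adjusted p = 0.0318). In all 5, cauda library 3 was the lowest of its group, and without it 16 members were called, whereas without KO cauda library 2 there was 1. The replicate block gave 17 calls, all higher, against 33.7% of all entries called and 21.4% called higher.

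The direction in KO tissue depended on the scaling. The median log2 fold change of the members was 0.77 against 0.03 over all entries and 0.91 over the Snord entries with TMM, and -0.17 against -0.73 over all entries with the library total, when 0 members were called higher and 3 lower. Scaled by the summed Snord counts it was -0.39 against -0.84 over all entries, with 0 higher and 1 lower (Snora47, log2 fold change -1.71). Under each of these the members lay above the median entry. The WT and KO differences between cauda and caput were set against each other by an interaction term, which called 0 of 50 members, against 0% of all entries, with 1 at an unadjusted p under 0.05, against 2.38% in that direction (Scarna2, interaction 1.27, SE 0.59, adjusted p = 0.813) and 0 called by DESeq2.

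What loss of the RNase genes does to the members was asked in each segment. In caput tissue 0 of 50 members were called between KO and WT, against 0% of all entries, with 0 at an unadjusted p under 0.05 in edgeR and 0 called by DESeq2. The log2 fold change was positive for 42 of 50 members, against 54.9% of all entries, but for 27 when scaled by the library total and 3 by the summed Snord counts. The 2 groups did not overlap for 3 members, all higher in KO, against 3.24% of all entries. Snora61, a guide for 28S rRNA, was one of them, with 8.34, 10.4 and 10.9 CPM in WT and 15.3, 16.7 and 11.0 CPM in KO. KO library 3 lay just above the highest WT library, and the log2 fold change was 0.54 (SE 0.30, adjusted p = 0.9996). In corpus tissue 0 of 50 were called, against 0%, with 0 at an unadjusted p under 0.05 and 0 called by DESeq2. The 2 KO libraries are those numbered 1 and 2, so only WT has a library numbered 3. Genotype and the set numbered 3 are thus partly confounded here. The log2 fold change was positive for 34 of 50, against 47.2% of all entries, but for 22 when scaled by the library total and 1 by the summed Snord counts. Snora5c had 1.47, 1.25 and 2.04 CPM in WT and 0.905 and 1.08 CPM in KO (-0.68, SE 0.39, adjusted p = 0.671), and Snora17 had 4.77, 4.94 and 2.99 CPM against 5.90 and 6.03 CPM (0.50, SE 0.38, adjusted p = 0.797). The groups did not overlap for either, as for 7 members in all, 3 higher against 11.8% of all entries and 4 lower against 15.2%. WT library 3 holds the highest WT value of Snora5c and the lowest of Snora17. Summed smooth muscle microRNAs were 44.2 to 87.5 CPM in WT and 24.3 to 29.5 CPM in KO corpus tissue, and epithelial microRNAs 16.3 to 25.9 and 10.5 to 10.7 CPM. Their part was not tested.

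The median log2 fold change of KO over WT was 0.26 over the members in caput tissue, 0.16 in corpus and 0.73 in cauda, where those of all entries were 0.04, -0.04 and 0.12. Leaving out 1 library moved the members' median to between 0.017 (without KO library 2) and 0.43 (without KO library 3) in caput, between -0.13 (without WT library 3) and 0.34 (without WT library 1) in corpus, and between 0.21 (without KO library 1) and 1.06 (without KO library 3) in cauda. In cauda tissue 0 of 50 members were called, against 0.86% of all entries, and 3 were called higher by DESeq2 (Scarna2, Snora61 and Snora19). At an unadjusted p under 0.05 there were 15 higher and 0 lower, against 7.74% and 7.37% of all entries. The log2 fold change was positive for 46 of 50 members, against 56.1% of all entries. The groups did not overlap for 9 members, all higher in KO, against 6.91% of all entries in that direction. Under a block for the library number 6 members were called, all higher, against 9.35% of all entries called and 5.79% called higher. Same-numbered pairs deviated together (correlations 0.28, 0.27 and 0.60), but KO library 1 also went with WT library 2 (0.19). Libraries numbered 3 that stand apart in both groups give such correlations too, so pairing by number cannot be told from that.

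The U17 RNAs were both among the 15. Snora73a had 16.2, 17.1 and 8.35 CPM in WT cauda and 34.7, 30.7 and 12.5 CPM in KO cauda (log2 fold change 0.91, adjusted p = 0.300), and Snora73b had 9.99, 11.2 and 6.77 CPM and 20.7, 22.2 and 9.26 CPM (0.90, adjusted p = 0.294). Library 3 was the lowest in each group, and the KO library numbered 3 lay inside the WT range for both RNAs, while each KO library was above the WT library of its number.

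Of the 39 guide entries 6 were among the 15. Snora61 had 11.1, 7.37 and 10.5 CPM in WT and 28.5, 26.7 and 15.01 CPM in KO, without overlap (1.27, SE 0.31, adjusted p = 0.0705, and 1.23 with adjusted p = 0.0104 under the block). Snora19 had 2.36, 3.55 and 2.18 CPM against 11.7, 8.22 and 3.35 CPM (1.52, SE 0.41, adjusted p = 0.0994, and 1.44 with adjusted p = 0.00869 under the block). KO library 3 lay inside the WT range, and most counts of this RNA fall on the Mir3084 bases. Snora68, a guide for 28S rRNA, had 10.1, 7.79 and 4.29 CPM against 23.5, 24.5 and 8.46 CPM, with KO library 3 inside the WT range (1.35, SE 0.53, adjusted p = 0.225, and 1.27 with adjusted p = 0.00771 under the block). Snora74a had 13.8, 11.3 and 8.99 CPM against 26.5, 19.0 and 13.4 CPM, with KO library 3 inside the WT range (0.79, adjusted p = 0.285), and Snora52 and Snora7a had log2 fold changes of 1.15 and 0.69 (adjusted p = 0.315 and 0.330). Outside the 15, the abundant Snora81 had 66.3, 74.6 and 21.9 CPM in WT and 94.8, 90.4 and 25.4 CPM in KO, and Snora28 41.1, 34.1 and 14.96 CPM and 104.6, 79.3 and 14.2 CPM. For both of these the libraries numbered 3 lay far under the others in each genotype, and KO library 3 of Snora28 did not exceed WT library 3. Of the microRNA hosts, Snora34 had 10.2, 12.9 and 2.73 CPM against 30.8, 20.3 and 4.14 CPM, and Snora36b had 2.46, 2.18 and 1.03 CPM against 5.08, 4.91 and 1.33 CPM (0.9998, adjusted p = 0.442). Snora70 had 5.94, 6.57 and 5.56 CPM against 9.69, 8.91 and 7.34 CPM, without overlap (0.52, adjusted p = 0.347), and Snora69 2.85, 4.58 and 2.08 CPM against 4.81, 6.82 and 3.15 CPM, with overlap (0.64, adjusted p = 0.477).

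The scaRNAs supplied the other 7, which were all 3 C/D box scaRNAs, both mixed scaRNAs and 2 of 4 H/ACA scaRNAs. Scarna2, which guides methylation of the spliceosomal U2 RNA, had 2.12, 1.26 and 2.04 CPM in WT and 5.34, 7.48 and 4.19 CPM in KO, without overlap (1.64, SE 0.43, adjusted p = 0.0941, and 1.70 with adjusted p = 0.00663 under the block). Scarna9, another U2 guide, had 0.730, 0.725 and 1.63 CPM against 2.18, 3.45 and 1.81 CPM, also without overlap (1.22, SE 0.44, adjusted p = 0.186, and 1.35 with adjusted p = 0.0275 under the block). Scarna10 had 6.97, 6.11 and 3.86 CPM against 17.6, 12.98 and 5.79 CPM (1.10, SE 0.45, adjusted p = 0.241, and 1.03 with adjusted p = 0.0428 under the block), with KO library 3 inside the WT range. Of the H/ACA scaRNAs, Scarna8 had 0.299, 0.420 and 0.243 CPM against 0.923, 0.624 and 0.551 CPM (1.14, SE 0.40, adjusted p = 0.181), and Scarna3a 3.15, 2.37 and 2.18 CPM against 5.47, 5.21 and 3.18 CPM (0.85, SE 0.34, adjusted p = 0.235). The KO and WT libraries did not overlap for either. Scarna17 had 1.96, 1.57 and 2.13 CPM against 3.10, 8.03 and 2.61 CPM, without overlap (1.28, adjusted p = 0.309), and Scarna6, a mixed scaRNA, 1.36, 1.07 and 0.521 CPM against 3.49, 2.57 and 0.678 CPM, with overlap (1.19, adjusted p = 0.323). The remaining H/ACA scaRNAs did not pass: Scarna3b had 1.53, 1.11 and 0.760 CPM against 2.77, 1.54 and 1.002 CPM (0.63, adjusted p = 0.496), and Scarna13, the lowest member, 12, 7 and 48 counts against 5, 6 and 15 (-0.20, adjusted p = 0.984). By role the median log2 fold change was 0.90 for U17, 0.68 for the guides, 0.74 for the H/ACA scaRNAs, 1.15 for the mixed and 1.28 for the C/D box scaRNAs, given as a description, since the groups hold 2 to 39 entries measured in the same libraries.

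**Figure D3:**
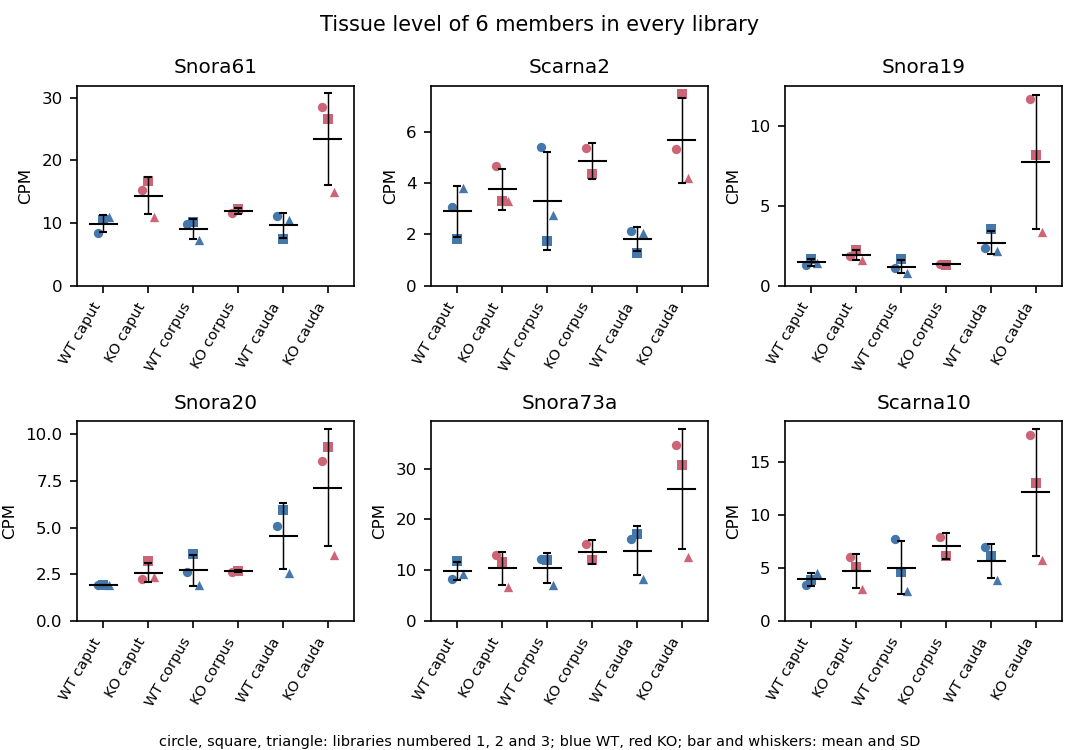
CPM in each tissue library (vertical axis) by segment and genotype for Snora61, Scarna2, Snora19, Snora20, Snora73a and Scarna10, with circles, squares and triangles for libraries numbered 1, 2 and 3 and a bar with whiskers for mean and SD. In KO cauda Snora61 has 15.01 to 28.5 CPM, all above the 7.37 to 11.1 CPM of WT cauda, and the triangle is the lowest KO cauda point in all 6 panels.

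The difference in cauda tissue was shared with other structural RNAs and its sign depended on the scaling. The median log2 fold change was 0.73 over the members, 0.12 over all entries, 1.27 over the Snord entries, of which 47 of 82 had an unadjusted p under 0.05, and 0.92 over the entries named Rnu. Scaled by DESeq2's size factors the members' median was 0.60 and that of all entries 0.007, and scaled by the library total they were 0.13 and -0.42. Scaled by the summed Snord counts they were -0.82 and -1.22, with 1 of 50 members positive. The members lay 0.40 to 0.61 above the median entry under the 5 scalings tried. As shares of all counts the members made up 0.0291 ± 0.0054% (SD, n = 3) in WT cauda and 0.0331 ± 0.0055% (SD, n = 3) in KO cauda, which overlap, and per Snord count 17.9 ± 6.27% and 10.4 ± 1.09%. The TMM factors of the KO cauda libraries numbered 1 and 2, 0.503 and 0.551, were lower than those of WT, 0.943 and 0.647, and the part of this in the result was not tested. With the 5 tissue libraries numbered 3 left out 11 members were called, all higher, against 8.56% of all entries called and 6.52% called higher. The median was 0.82 over members that overlap a microRNA and 0.70 over those that do not.

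**Figure D4:**
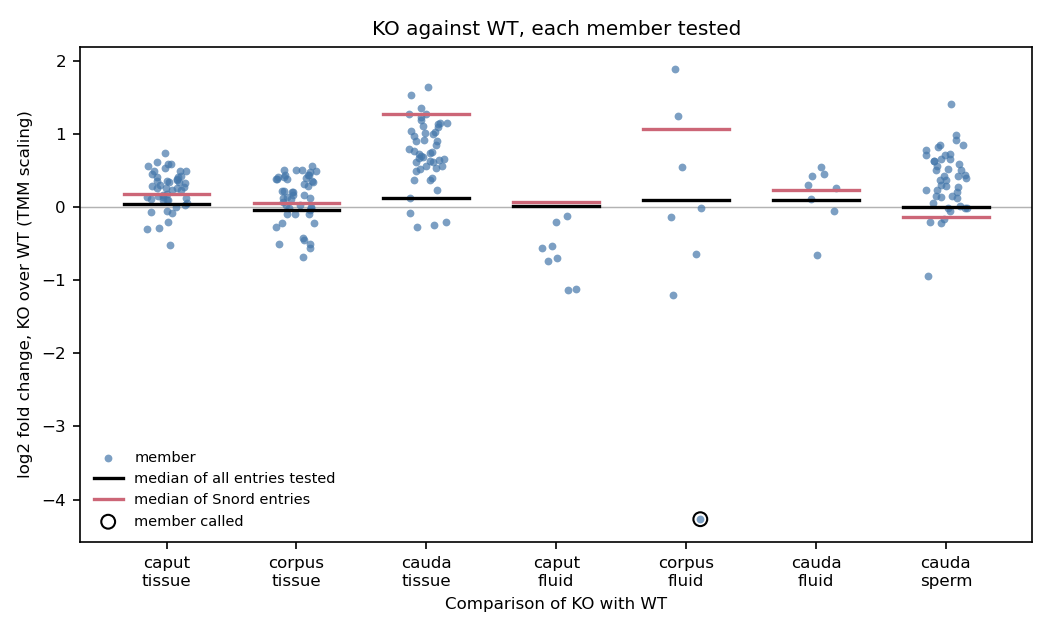
Log2 fold change of KO over WT (vertical axis) for each member tested, by comparison (tissue segments, fluid segments and sperm), with a black line at the median of all entries, a red line at the Snord median and a circle around a member that was called. In cauda tissue 46 of 50 points are above 0 with a median of 0.73, and the circled point is Snora74a in corpus fluid.

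In fluid 8 members passed the low-count filter (Snora7a, Snora73a, Snora73b, Snora74a, Snora81, Scarna3a, Scarna3b and Scarna10), and the other 23 listed had too few counts to test. The filter can be passed through a single group. A member high only in that group can so be among the 8, which favours falls from it. The members' share of all counts in WT fluid was 0.00232 ± 0.00019% (SD, n = 3) in caput, 0.00184 ± 0.00043% (SD, n = 3) in corpus and 0.00098 ± 0.00041% (SD, n = 3) in cauda. In KO it was 0.00174 ± 0.00043%, 0.00167 ± 0.00031% and 0.00130 ± 0.00052% (SD, n = 3 each).

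Relative to WT caput fluid, 3 of 8 members were lower in WT cauda fluid and none higher, against 25.1% of all entries called and 15.4% called lower. Members that passed the filter through caput would be favoured in this count, and how far they were was not tested. The U17 RNAs were 2 of the 3. Snora73a had 1.33, 2.10 and 1.20 CPM in caput, from 10, 12 and 8 counts, and 0.0920, 0.352 and 0.340 CPM in cauda, from 1, 4 and 2 counts (-2.52, SE 0.77, adjusted p = 0.0207). Snora73b had 1.597, 3.85 and 2.54 CPM in caput and 0.276, 0.616 and 0.510 CPM in cauda (-2.47, SE 0.75, adjusted p = 0.0204). Snora81 had 3.06, 2.80 and 3.59 CPM in caput, from 23, 16 and 24 counts, and 0.276, 0.880 and 0.340 CPM in cauda, from 3, 10 and 2 counts (-2.57, SE 0.71, adjusted p = 0.0118). The caput and cauda libraries did not overlap for any of the 3. In tissue, for comparison, Snora81 had 41.5, 54.6 and 21.5 CPM in WT caput and 66.3, 74.6 and 21.9 CPM in WT cauda. The 3 calls did not hold up to leaving out 1 library: 3 were kept without cauda library 2, only Snora73b without caput library 1, only Snora81 without caput library 2, only Snora73a without caput library 3, and 0 without cauda library 1 or 3. Germ cell microRNAs had a summed level of 1.996 to 3.50 CPM in WT caput fluid and 15.1 to 31.6 CPM in WT cauda fluid, smooth muscle microRNAs 76.8 to 138.5 and 147.4 to 321.3 CPM, and immune cell microRNAs 6.44 to 10.2 and 19.9 to 39.97 CPM. Red blood cell microRNAs had 23.6 to 25.02 CPM in WT caput fluid and 39.97 to 60.98 CPM in WT cauda fluid. Their part in the result was not tested.

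Snora81 was also lower in WT corpus than caput fluid, at 0, 0.848 and 1.01 CPM from 0, 9 and 5 counts (-2.33, SE 0.72, adjusted p = 0.0292), the 1 of 8 members called, against 17.7% of all entries called and 9.54% called lower. Scaled by the library total 0 members were called, and of the 6 leave-outs of 1 library the call of Snora81 was kept only without corpus library 3. Epithelial microRNAs had a summed level of 103 to 181.6 CPM in WT caput fluid and 27.1 to 62.6 CPM in WT corpus fluid, and their part was not tested. Snora16a, a guide of the Snhg12 transcript, was under the filter but went the same way, with 8, 4 and 17 counts in WT caput and none in the 3 WT corpus libraries. It was at least 6.86-fold lower by the 95% exact interval of the pooled ratio, which also covers the counting error of caput. This bound is for counting error alone and leaves out the spread between libraries. With the corpus group set at a floor of 3 counts the difference was 8.9997-fold, which leaves out the counting error of caput. In WT cauda it had 0, 1 and 0 counts, a pooled ratio to caput of 0.0247 (95% exact interval 0.000604 to 0.149, for counting error alone), and in KO 2, 1 and 0 counts in cauda against 12, 6 and 6 in caput (0.143, 0.0276 to 0.472). This RNA was chosen after its values were seen.

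In KO fluid 0 of 8 members were called between cauda and caput, against 26% of all entries, with 0 at an unadjusted p under 0.05 and 0 called by DESeq2. Snora81 had 0.847, 1.24 and 2.30 CPM in KO caput and 0.562, 1.03 and 0.499 CPM in KO cauda, which overlap (-1.03, adjusted p = 0.279), and the values were -1.25 and -1.06 for Snora73a and Snora73b (adjusted p = 0.212 and 0.289). The difference between the WT and KO differences was not called for any member, against 0% of all entries (Snora81 1.54, SE 0.9991, unadjusted p = 0.136, adjusted p = 0.518), so that a segment difference particular to WT was not shown. In WT cauda against corpus fluid 0 of 8 were called, against 2.17%, with 1 at an unadjusted p under 0.05, against 15% in that direction (Snora73a, -1.76, adjusted p = 0.159) and 0 called by DESeq2.

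Between KO and WT fluid, 1 of 8 members was called in corpus, against 19.7% of all entries called and 6.23% called lower. Snora74a, a guide for 28S rRNA also known as U19, had 3.28, 3.48 and 0.805 CPM in WT corpus, from 22, 37 and 4 counts, and 0, 0 and 0.414 CPM in KO corpus, from 0, 0 and 1 counts. All KO libraries lay under all WT libraries. The log2 fold change was -4.27 (SE 1.19, adjusted p = 0.0164), and the pooled ratio was 0.0426 (95% exact interval 0.00106 to 0.246, for counting error alone), from 1 of 7797580 counts against 63 of 20914301. Without KO corpus library 1 or 2 the adjusted p was 0.0671 or 0.0756, and in a fit of the 2 groups alone it was not called. In the other segments Snora74a had 1.06, 1.75 and 1.05 CPM in WT caput against 0.753, 1.40 and 0.406 CPM in KO, and 0.276, 1.14 and 1.36 CPM in WT cauda against 1.26, 1.03 and 0.166 CPM in KO, with overlap in both, and in cauda tissue it had 13.8, 11.3 and 8.99 CPM in WT and 26.5, 19.0 and 13.4 CPM in KO. Its counts in fluid came in part from the microRNA annotation it overlaps, whose summed count was 67.9% of its own.

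Not all members followed it in corpus fluid. Snora81 had 0, 0.848 and 1.01 CPM in WT and 2.81, 2.43 and 1.66 CPM in KO, without overlap in the opposite direction, and missed the threshold (1.88, SE 0.76, adjusted p = 0.0881). Scarna10 had 2.99, 3.58 and 2.21 CPM against 2.01, 1.35 and 0.414 CPM (-1.21, SE 0.63, adjusted p = 0.182). Some markers of other cells differed with the genotype there. The summed germ cell microRNAs were 3.58 to 9.06 CPM in WT and 12.8 to 15.4 CPM in KO. Epithelial microRNAs were 27.1 to 62.6 and 87.5 to 134 CPM, also without overlap. The groups overlapped for immune cell microRNAs, at 13.6 to 17.7 and 17.2 to 70.9 CPM. They also overlapped for red blood cell microRNAs (19.0 to 50.2 and 18.4 to 120 CPM) and smooth muscle microRNAs (90.6 to 167.8 and 126.7 to 266.8 CPM). Their part in the result was not tested.

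In caput fluid 0 of 8 members were called between KO and WT, against 0% of all entries, with 0 at an unadjusted p under 0.05 in edgeR and 0 called by DESeq2. The largest values were -1.13 for Snora81 (SE 0.65, adjusted p = 0.614) and -1.14 for Snora73b (SE 0.69, adjusted p = 0.620), and 0 of 8 members were positive, against 50.4% of all entries. Epithelial microRNAs had a summed level of 103 to 181.6 CPM in WT and 240.9 to 298 CPM in KO caput fluid, without overlap, and immune cell microRNAs 6.44 to 10.2 and 11.8 to 17.6 CPM, and their part was not tested. In cauda fluid 0 of 8 were called, against 0%, with 0 at an unadjusted p under 0.05 and 0 called by DESeq2 (Scarna10 -0.66, adjusted p = 0.715, and Snora73a 0.54, adjusted p = 0.848).

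**Figure D5:**
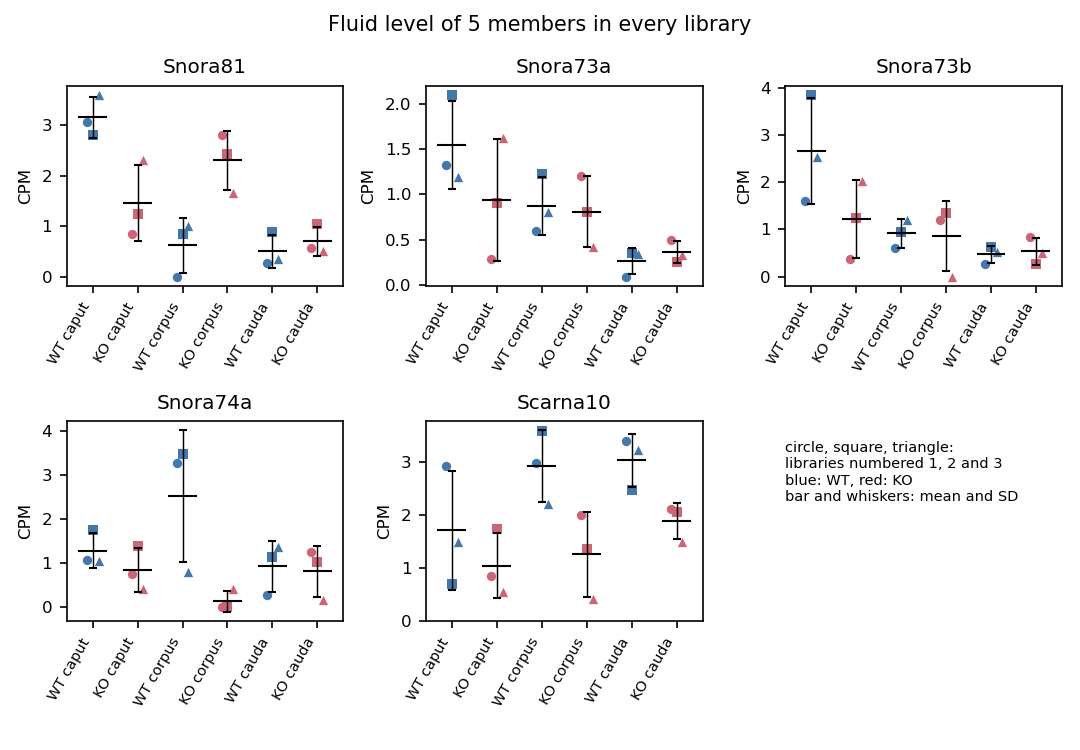
CPM in each fluid library (vertical axis) by segment and genotype for Snora81, Snora73a, Snora73b, Snora74a and Scarna10, with a bar and whiskers for mean and SD (n = 3). Snora74a lies at 0.805 to 3.48 CPM in WT corpus and at 0 to 0.414 CPM in KO corpus, and Snora81 is higher in the 3 WT caput libraries than in any WT cauda library.

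In sperm 46 of the 48 entries passed the filter. Between KO and WT sperm 0 of 46 were called, against 0% of all entries, with 1 at an unadjusted p under 0.05, against 8.02% of all entries in that direction, and 0 called by DESeq2. That one was Snora52, a guide for 28S rRNA, with 0.689, 0.390, 0 and 0.723 CPM in WT, from 44, 1, 0 and 2 counts, and 0.851, 1.62, 1.63 and 2.40 CPM in KO, from 24, 77, 108 and 7 counts (1.40, SE 0.56, adjusted p = 0.217). It and Snora9 were the 2 members whose groups did not overlap, both higher in KO, against 8.15% of all entries. The median log2 fold change of the members was 0.41, against -0.003 over all entries and -0.14 over the Snord entries, with 38 of 46 positive against 49.8% of all entries. It was 0.15 to 0.34 under the 4 other scalings.

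The abundant members were spread widely within WT sperm. Snora81 had 38.3, 24.96, 25.9 and 68.7 CPM in WT and 48.0, 75.99, 74.5 and 99.9 CPM in KO (0.92, SE 0.47, adjusted p = 0.342). The U17 RNA Snora73a had 9.78, 8.97, 6.35 and 28.9 CPM in WT and 18.1, 19.8, 19.3 and 40.1 CPM in KO, and Snora7a, a guide for 28S rRNA, 16.4, 7.80, 4.23 and 87.5 CPM and 26.1, 27.4, 29.5 and 31.6 CPM. In each of the 3, WT library 4 was far above the other WT libraries and within or above the KO range. Without it these 3 members were called higher in KO (Snora81 log2 fold change 1.37, adjusted p = 0.0410), and the median over the members was 1.02. Leaving out WT library 3 in its place gave a median of 0.11, and all 8 leave-outs lay between these values. WT library 4 holds 3025269 counts in all. Scarna2 had 6.82, 2.34, 7.40 and 26.7 CPM in WT and 9.29, 10.2, 12.1 and 24.7 CPM in KO, and it was not called in sperm. Of the C/D box scaRNAs Scarna17 had 0.8294, 1.95, 0.529 and 10.8 CPM in WT and 1.67, 1.598, 1.93 and 1.72 CPM in KO (-0.95, adjusted p = 0.574), again with WT library 4 far above the rest. As a share of all counts the members made up 0.0382 ± 0.0221% in WT and 0.0439 ± 0.0134% in KO sperm (SD, n = 4 each), which overlap. Red blood cell microRNAs ran from 2.64 to 7.80 CPM in WT and from 1.63 to 55.4 CPM in KO sperm, and their part was not tested.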

How the data were processed

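The deposited values were raw read counts, 1 table each for tissue, fluid and sperm. The authors trimmed reads with cutadapt, mapped them with bowtie2 in a modified tRAX pipeline to mm10 and counted them on small RNA features, a read with several equal matches being counted on each. UMI-tools is named in the submitters' processing notes without a version. Inserts were short, so most counts on an RNA of this length are of fragments, and PCR copies and strand cannot be judged here.

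Each table was fitted whole with edgeR 4.0.16 in R 4.3.3 (filterByExpr by group, minimum count 10, minimum total 15; TMM; quasi-likelihood test; Benjamini-Hochberg adjustment over all entries tested: 3488 in tissue, 2023 in fluid and 2480 in sperm), with all groups in 1 fit. Calls were made at an adjusted p below 0.05 with a change of more than 1 on the log2 scale. CPM uses the TMM-scaled library total, and an SE was derived from the F statistic. Alternatives were DESeq2 1.42.0, 3 other scalings, no filter, the replicate number as a block, the 2 groups alone, each library left out, and 4 chosen after the data were seen (scaling by Snord counts, members with a microRNA left out, tissue libraries numbered 3 left out, WT sperm library 4 left out of the sperm level set beside tissue). The numbers were taken to pair libraries where the deviations of every same-numbered pair correlated above 0.1: KO and WT cauda tissue (0.27 to 0.60), the WT tissue segments and KO cauda and caput tissue. This rule cannot tell pairing by number from libraries numbered 3 standing apart in both groups. KO cauda library 1 correlated 0.35 with KO caput library 2 and 0.18 with KO caput library 1. Replicates are separate libraries whose animals the labels do not identify, so p-values measure the spread between libraries. Tissue segments with the same genotype and number in their names may come from the same mice. The main tests between segments treated them as independent, and only the fit with the replicate block allows for such a link. Members were named if called (up to 10 a KO comparison, and in WT segment comparisons the 3 with the largest rise and fall), if among the 2 with the smallest p of a KO comparison, if among the 6 with the highest level of a table, or for their role; others named were chosen after their values were seen. The members and lists were chosen with earlier results of these data known. The scripts were tested on simulated data. Sequences and microRNA overlaps came from GENCODE M21 and RefSeq. Snora35 and Snora72 were not analysed here.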

Additional observations from a re-analysis of the deposited data

Results flagged for a closer look

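In sperm, with 4 libraries a group, 46 groups of values of the members were searched for a library that stood far from the other 3, by the gap to its nearest neighbour over the range (Dixon's test at its 95% critical value). Chance flags about 1 in 20 groups, and 9 were found, many of them through the same libraries. In WT sperm library 4 was the high one for 5 members: Scarna17 with 10.8 CPM against 0.529 to 1.95 CPM in the others, Snora24 with 70.1 CPM against 6.87 to 14.04 CPM, Snora73a with 28.9 CPM against 6.35 to 9.78 CPM, Snora73b with 33.2 CPM against 8.46 to 11.8 CPM and Snora7a with 87.5 CPM against 4.23 to 16.4 CPM. In KO sperm library 4 was the high one for 3 members: Snora28 with 42.9 CPM against 28.2 to 30.7 CPM, Snora36b with 3.43 CPM against 1.61 to 1.83 CPM and Snora73a with 40.1 CPM against 18.1 to 19.8 CPM. KO library 1 was high for the members' counts as a percentage of the Snord counts, with 20.2% against 15.5 to 16.01%. Both libraries numbered 4 are among the shallow ones, with 3025269 counts in WT and 3618739 in KO.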

How the results depend on the processing

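Of 454 alternative values for single named members, 394 kept their direction and their side of the threshold, 47 lost the call, 10 gained one and 3 reversed. The 3 reversals came with scaling by the summed Snord counts: Snora61 -0.020 in caput and -0.21 in cauda tissue and Snora17 -0.15 in corpus tissue, KO over WT. Calls in KO cauda against caput tissue numbered 5, and 3 with the library total (all lower), 1 with TMM from entries other than tRNA and rRNA, 3 without the filter, 17 with the replicate block, 2 in a fit of the 2 groups alone, 1 (lower) scaled by Snord counts and 26 with the libraries numbered 3 left out. In WT cauda against caput tissue there was 1, and 0 with the second TMM or with Snord counts, 2 with DESeq2, with the block or with the 2 groups alone, and 8 with the libraries numbered 3 left out; the library total also gave 1, but Snora47 and lower (-1.28, adjusted p = 0.0469). KO against WT cauda tissue had 0, and 3 with DESeq2, 6 with the block and 11 with the libraries numbered 3 left out. WT cauda against corpus tissue gained 1 with the block, and WT corpus against caput tissue 4 with the libraries numbered 3 left out. In fluid, WT corpus against caput had 1, and 0 with the library total, the second TMM, Snord counts or members with a microRNA left out, and 3 without the filter or with DESeq2, where Snora16a enters as 2 entries. KO against WT corpus fluid had 1, and 2 with the second TMM or Snord counts, 0 with the 2 groups alone and 0 with microRNA members left out, which removes Snora74a itself. WT cauda against caput fluid had 3, and 6 without the filter or with DESeq2. The block changed no call of fluid or sperm.

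Leaving out 1 library gave 0 to 2 calls in WT cauda against caput tissue and in KO against WT cauda tissue, 1 to 16 in KO cauda against caput tissue, 0 to 1 in KO against WT corpus fluid and WT cauda against corpus fluid, 1 to 6 in WT cauda against caput fluid, 0 to 3 in WT corpus against caput fluid and 0 to 3 in sperm. In fluid these were often other members than those reported: 0 of the 3 calls of WT cauda against caput were kept in 2 of 6 leave-outs and 1 in 3 more, and that of WT corpus against caput was kept in 1 of 6, the others being of Snora16a, which enters as 2 entries, Scarna3b or Snora65. The log2 ratio of the members' share, KO over WT, was 0.07, 0.007 and 0.18 in caput, corpus and cauda tissue and -0.29, -0.40 and -0.79 as a share of Snord counts; in corpus fluid it was -0.14, -0.93 per Snord count and -0.60 per count outside tRNA and rRNA. With 1 library left out it ran from -0.15 to 0.27, -0.16 to 0.16 and 0.06 to 0.33 in the tissues, -0.64 to -0.29, -0.32 to -0.02 and 0.04 to 0.71 in caput, corpus and cauda fluid, and -0.02 to 0.67 in sperm. The cause of these shifts was not tested. Fluid values are limited by depth, since 23 listed members had too few counts to test.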
